A study of Mus musculus with 10 samples.

Results

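Transcripts of 10 circadian clock genes were examined in hypertrophied hepatic stellate cells (hypHSCs) and quiescent hepatic stellate cells (qHSCs) of mouse liver. The genes are the period genes Per1, Per2 and Per3, the cryptochrome genes Cry1 and Cry2, the PAR bZIP factor genes Dbp, Tef and Hlf, and the activator genes Clock and Npas2. They were taken by gene symbol from the 25233 entries that carry one, out of 62322 entries in all, and each symbol matched 1 entry. RNA was sequenced from 5 hypHSC and 5 qHSC preparations, 1 library each, all from livers of male C57BL/6J mice. The hypHSCs came from mice fed the CDAHFD, which is high in fat, lacks choline and causes steatohepatitis, for 13 weeks at an age of 19 weeks (hypHSC 1 and 2) or for 12 weeks at an age of 18 weeks (hypHSC 3, 4 and 5). The qHSCs came from mice on standard diet aged 36 weeks (qHSC 1, 2 and 5) or 34 weeks (qHSC 3 and 4). Both kinds of cell were enriched on a density gradient and sorted on their own fluorescence, green for hypHSCs and blue for qHSCs. Diet, age, digestion and gate therefore differed together between the groups and cannot be told apart. The labels tie no library to a mouse, so n counts preparations, and p-values measure the spread between preparations. The authors picked the hypHSC preparations for the highest RNA integrity, from samples that outnumbered the mice. Libraries may therefore share a mouse. The qHSC preparations were selected too.

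The circadian clock is a loop of transcription and repression that runs in nearly every cell of the body. CLOCK or its paralog NPAS2 pairs with BMAL1 and activates genes with E-boxes, among them the Per and Cry genes, whose proteins then return to the nucleus and repress the pair. A further loop is formed by the nuclear receptors REV-ERB (Nr1d1, Nr1d2) and ROR, which act in opposite ways on Bmal1 and Npas2, and an output arm by DBP, TEF and HLF, which compete with the repressor NFIL3 for D-boxes. In liver, transcripts of Dbp, Tef, Per and Nr1d1 peak at another time of day than those of Bmal1, Npas2 and Nfil3. A single library samples the clock at the hour of its cell collection. The mice lived in a cycle of light and dark, and the hour at which each liver was dissociated is not given in the sources used here.

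The recognition letters of this loop stand near the start sites of several of these genes, and the windows below are printed to show which elements of the loop each gene carries. The 300 bases upstream of each gene's start site were read from the GRCm39 genome, with the Ensembl canonical transcript of the GENCODE annotation giving the start. Such bases can lie in exons of other transcripts or gene models. Annotated exons covered all 28 bases of the Cry1 window printed below, all 29 of the Dbp window and 3 of the Tef window. The letters were searched on both strands, and capitals mark the match.
Per1, E-box, chr11:68989219-68989267, plus strand: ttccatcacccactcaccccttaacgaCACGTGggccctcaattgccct
Cry1, E-box, chr10:85020962-85020989, minus strand: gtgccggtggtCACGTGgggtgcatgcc
Tef, E-box, chr15:81695466-81695493, plus strand: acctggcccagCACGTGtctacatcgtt
Cry2, E-prime box, chr2:92264564-92264591, minus strand: cacatggtgggAACGTGagggggcggag
Per2, D-box, chr1:91387137-91387198, minus strand: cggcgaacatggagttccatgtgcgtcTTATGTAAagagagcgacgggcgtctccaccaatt
Per3, D-box, chr4:151129262-151129291, minus strand: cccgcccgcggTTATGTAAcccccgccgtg
Dbp, ROR element, chr7:45354312-45354340, plus strand: ttggccaaataTAGGTCAgtgtcccgcct
The E-box CACGTG was found in the windows of Per1, Cry1 and Tef, beginning 22, 29 and 138 bases before the start. It occurred in 6.95% of the windows of 21750 protein-coding genes. The variant AACGTG, or CACGTT on the other strand, was found at Cry1 and Cry2 and in 5.07% of all windows. The D-box TTATGTAA, searched together with TTACGTAA, was found once at Per2 and at 2 positions at Per3, 187 and 140 bases before the start, and in 1.11% of all windows. TAGGTCA, the letters bound by ROR and REV-ERB, was found at Dbp and in 2.71% of all windows. The cyclic AMP response element TGACGTCA was found at 0 of the 10 genes and in 1.75% of all windows, and the windows of Hlf, Clock and Npas2 held none of these letters. Elements outside the windows were not searched.

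Of the 10 clock genes, 1 differed between the groups. Npas2 was lower in hypHSCs, and no gene of the 10 was called higher. The remaining 9 had log2 fold changes from -2.10 to 0.19, with SEs from 0.26 for Clock to 1.16 for Hlf. Genes were called differentially expressed (DEGs) where limma, on log2(normalized count + 1), gave an adjusted p no higher than 0.05 and the log2 fold change was 1 or more in either direction. DEGs made up 39.5% of the 14630 genes tested, with 17.8% higher in hypHSCs and 21.7% lower, and all 10 clock genes passed the filter on low values. The count of 1 in 10 stood beside that background, and the median log2 fold change was -0.37 over the clock genes and -0.20 over all genes tested. The split of 2602 DEGs higher and 3177 lower became 2013 and 4242 with all libraries scaled to the same total. Scaled on the reference genes Hprt, Pgk1 and Actb it became 1472 and 7018, and there 5 of the 10 clock genes were lower, Cry1, Cry2, Hlf and Clock beside Npas2. DESeq2 and edgeR on the recovered reads also called 1 clock gene lower and 0 higher. At an unadjusted p under 0.05, limma, DESeq2 and edgeR each had 0 clock genes higher and 1 lower.

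**Figure D1:**
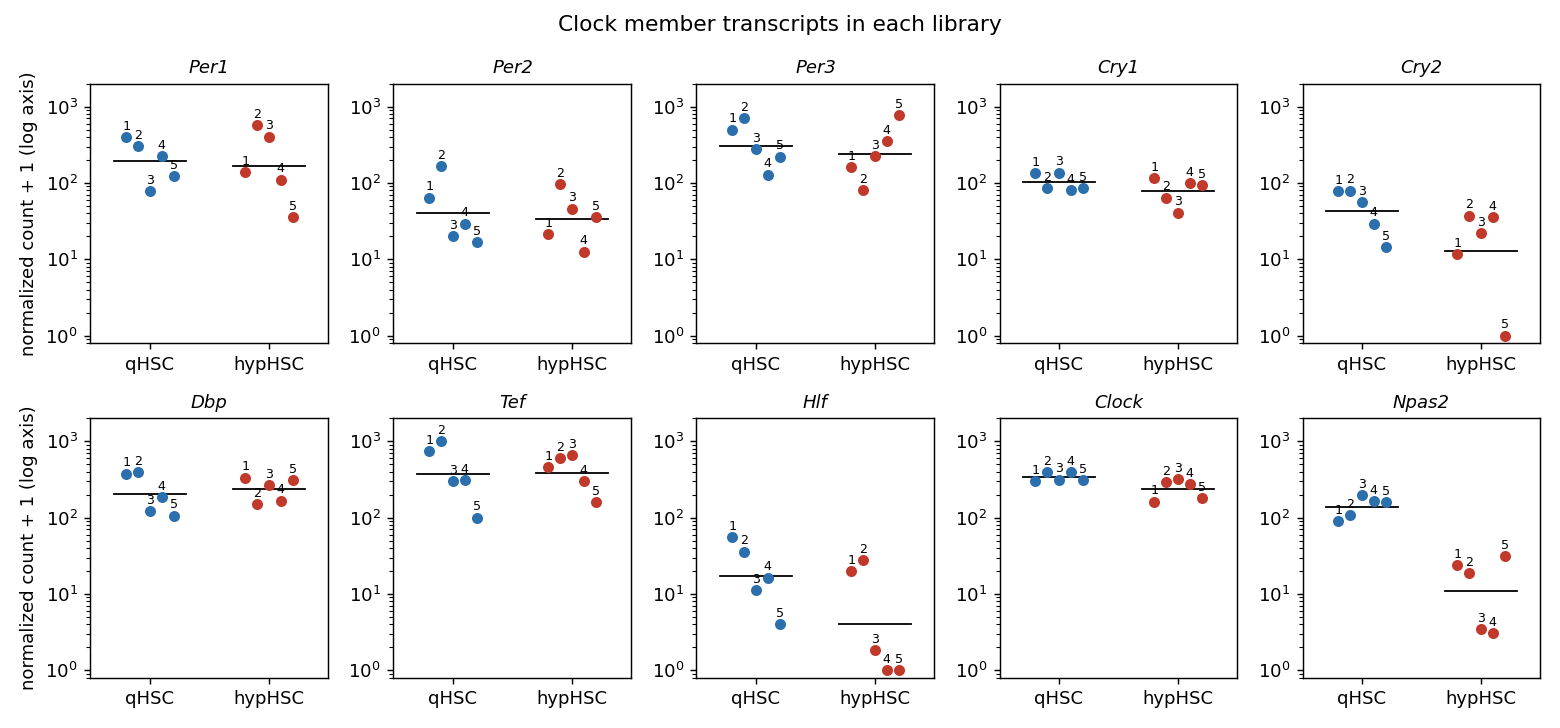
Normalized count + 1 on a log axis for each of the 10 clock genes, with 1 numbered point per library (blue, qHSC; red, hypHSC) and a bar at the mean of the log values of each group. Npas2 is the gene whose groups do not overlap, while the groups of the other 9 genes overlap.

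Npas2 (chr1:39233285-39402321) encodes the paralog of CLOCK that also pairs with BMAL1. It had normalized counts of 22.9, 17.6, 2.49, 2.10 and 30.3 in hypHSC 1 to 5. They were 88.7, 107, 198, 163 and 157 in qHSC 1 to 5. Every hypHSC library lay below every qHSC library, as was so for 22.0% of all genes tested. The mean was 15.1 ± 12.5 in hypHSCs and 143 ± 44.3 in qHSCs (SD, n = 5 each). The log2 fold change was -3.67 (SE 0.71, 95% interval -5.23 to -2.10), a 12.7-fold lower value on the scale of the normalized count + 1. The adjusted p was 0.00144 in limma, and the exact two-sided permutation test gave 0.00794, the smallest value that 5 libraries against 5 allow. hypHSC 3 and 4 were at or below the detection floor of 3 reads, so that the fold depends on the added count in these libraries. With the hypHSCs of 12 weeks only, the log2 fold change was -4.31. In the GENCODE annotation, which gave all exon shares here, 12.7% of the exon bases of Npas2 are shared with another gene model, Gm53549. The libraries do not keep the strand.

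Clock (chr5:76357716-76452639) encodes a histone acetyltransferase that is the usual partner of BMAL1. Its normalized counts were 162, 290, 323, 277 and 178 in hypHSC 1 to 5, and 301, 398, 313, 397 and 310 in qHSC 1 to 5. On the log2 scale Clock had the smallest SD of the 10 genes in qHSCs, where the normalized count + 1 of its highest library was 1.32 times that of its lowest. hypHSC 3 lay within the range of the qHSCs and the other hypHSC libraries below it. The log2 fold change was -0.52 (SE 0.26, 95% interval -1.10 to 0.05), with an adjusted p of 0.118 in limma. The exact permutation test of Clock alone gave 0.0397, which is not adjusted over the genes. In the GENCODE annotation 11.9% of the exon bases of Clock are shared with Tmem165, which rose in hypHSCs with a log2 fold change of 1.86 (SE 0.17). The counted entries of Clock and Tmem165 do not overlap, as that of Tmem165 ends at chr5:76357091.

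The 2 paralogs thus stood in a different ratio in the groups. The log2 ratio of the Npas2 to the Clock value within a library ran from -6.54 to -2.52 in hypHSCs and from -1.89 to -0.66 in qHSCs, without overlap. Its mean was -4.46 ± 1.95 in hypHSCs and -1.31 ± 0.52 in qHSCs (SD, n = 5 each). The ratio does not depend on how the libraries were scaled, apart from the added count of 1. It was described and not tested, since Npas2 is one of its terms.

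The period genes encode the proteins that carry the repressive complex into the nucleus. Per1 (chr11:68986078-69000789), which also responds quickly to hormones and cyclic AMP, had normalized counts of 137, 571, 402, 109 and 34.8 in hypHSC 1 to 5. In qHSC 1 to 5 it had 401, 304, 77.9, 226 and 121. The hypHSCs enclosed the whole range of the qHSCs, with hypHSC 2 and 3 high and hypHSC 5 low. The log2 fold change of Per1 was -0.22 (SE 0.73, 95% interval -1.83 to 1.4, adjusted p = 0.826 in limma), and it changed sign when hypHSC 5 or qHSC 1 was left out.

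Per2 (chr1:91343704-91387054), a repressor that also binds nuclear receptors, was the lowest of the period genes. Counts after normalization were 20.2, 96.3, 44.9, 11.5 and 34.8 in hypHSC 1 to 5, and 63.4, 164, 18.9, 28.2 and 15.7 in qHSC 1 to 5. In normalized count + 1, qHSC 2 was 9.88 times qHSC 5, and the groups overlapped. Per2 had a log2 fold change of -0.26 (SE 0.75, adjusted p = 0.796 in limma).

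Per3 (chr4:151088112-151129123), whose loss disturbs the rhythm least among the period genes, ran the other way from Per1 in hypHSCs. Its normalized counts were 162, 78.7, 224, 351 and 767 in hypHSC 1 to 5, so that the library lowest in Per1, hypHSC 5, was the highest in Per3. In qHSC 1 to 5 they were 499, 698, 278, 128 and 220, with qHSC 1 and 2 the highest for Per3 as for Per1. Its log2 fold change was -0.36 (SE 0.62, adjusted p = 0.653 in limma).

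The cryptochromes block CLOCK and BMAL1 directly. Cry1 (chr10:84967566-85020929), the stronger repressor of the pair, varied less than the period genes. In hypHSC 1 to 5 its normalized counts were 116, 63.2, 39.9, 98.6 and 92.3, and 133, 85.2, 135, 78.7 and 85.4 in qHSC 1 to 5. The groups overlapped, and hypHSC 2 and 3 lay below every qHSC library. For Cry1 the log2 fold change was -0.39 (SE 0.38, 95% interval -1.22 to 0.45, adjusted p = 0.428 in limma).

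Cry2 (chr2:92233995-92264418) was lower than Cry1 in every library. It had normalized counts of 10.8, 36.2, 20.8, 34.6 and 0 in hypHSC 1 to 5, and of 77.8, 78.4, 55.1, 28.2 and 13.5 in qHSC 1 to 5. qHSC 1, 2 and 3 lay above every hypHSC library, and qHSC 4 and 5 within their range. Cry2 had a log2 fold change of -1.75 (SE 0.99, 95% interval -3.92 to 0.41, adjusted p = 0.164 in limma), and it was -0.84 without hypHSC 5, the library with 0 reads. A read count of 0 in that library allows up to 4.54 normalized counts, the floor of 3 reads there. This limit covers counting error only.

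The PAR bZIP factors are outputs of the loop that drive genes of metabolism and detoxification in liver. Dbp (chr7:45354671-45359627), one of the most strongly rhythmic liver transcripts, had normalized counts of 333, 150, 268, 167 and 309 in hypHSC 1 to 5. In qHSC 1 to 5 it had 376, 393, 121, 185 and 106. The hypHSCs all fell inside the range of the qHSCs. Dbp had a log2 fold change of 0.19 (SE 0.44, 95% interval -0.76 to 1.15, adjusted p = 0.738 in limma), and it was -0.04 without qHSC 5. Of the exon bases of Dbp, 15.5% are shared with Sphk2 on the opposite strand, and Sphk2 had a log2 fold change of 1.01 (SE 0.59) that did not pass the test.

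Tef (chr15:81686620-81711062) had the highest mean normalized count of the 10 genes in either group, with 460, 601, 666, 301 and 157 in hypHSC 1 to 5. It had 749, 1007, 302, 312 and 98.9 in qHSC 1 to 5, so that qHSC 2 was 10.1 times qHSC 5 in normalized count + 1. The qHSCs enclosed the hypHSCs. In limma the log2 fold change was 0.06 (SE 0.61, 95% interval -1.28 to 1.4, adjusted p = 0.943 in limma), and its sign turned when any of 6 libraries (hypHSC 1, 2 or 3, or qHSC 3, 4 or 5) was left out.

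Hlf (chr11:90227361-90281743) was close to the floor. The normalized counts were 18.9, 26.9, 0.83, 0 and 0 in hypHSC 1 to 5, and 54.3, 34.9, 10.2, 15.4 and 3.0 in qHSC 1 to 5. hypHSC 1 and 2, the libraries of 13 weeks of diet, had values among those of the qHSCs, whereas hypHSC 3, 4 and 5, those of 12 weeks, were below the floor of 3 reads. Over all libraries the log2 fold change was -2.10 (SE 1.16, 95% interval -4.64 to 0.44, adjusted p = 0.157 in limma). It was -1.15 with 5 in place of 1 as the added count, -2.54 with 0.5, -1.34 with DESeq2 and -2.80 without hypHSC 2, and passed the test in none of these. With the hypHSCs of 12 weeks only, which hold 1 read or none, it was -3.81 (SE 0.94, adjusted p = 0.00961 in limma), a value that depends on the added count. The weeks of diet and 1 week of age go together in these libraries.

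**Figure D2:**
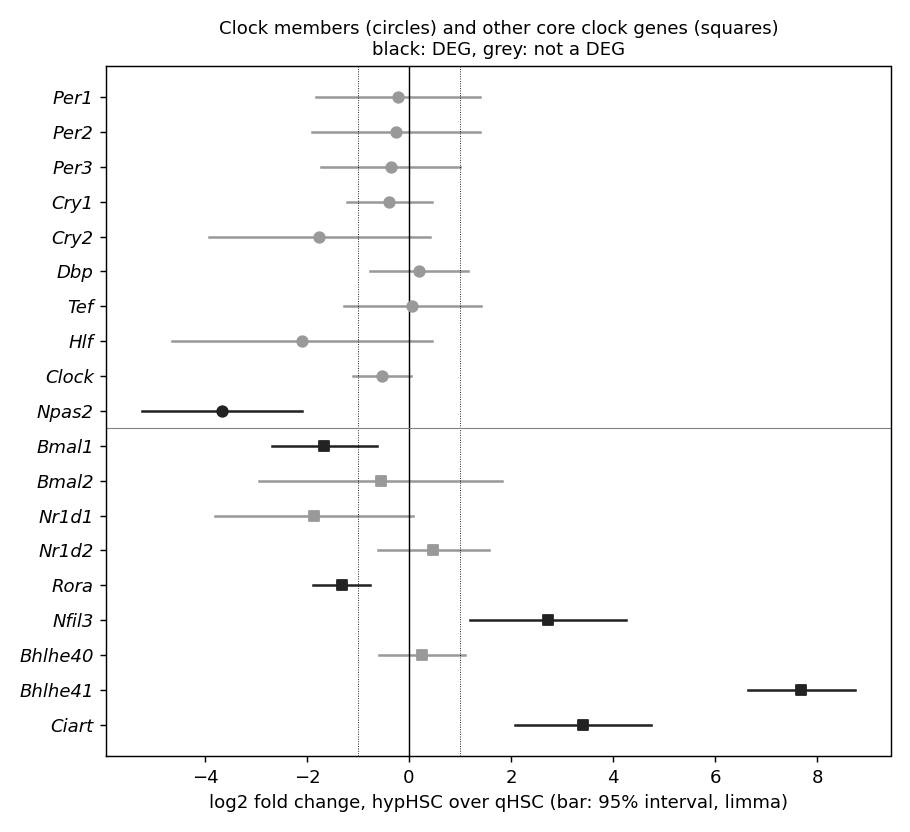
Log2 fold change of hypHSCs over qHSCs with its 95% interval from limma for the 10 clock genes (circles) and 9 further core clock genes (squares), black where the gene was a DEG and grey where it was not, with dotted lines at -1 and 1. Npas2 is the black circle, at -3.67, and Bhlhe41 lies farthest to the right, at 7.69.

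The other core clock genes were read beside these, from a list of 10. Of the 9 that were tested, 3 were higher (Nfil3, Bhlhe41 and Ciart) and 2 lower (Bmal1 and Rora), with a median log2 fold change of 0.26, beside 17.8% higher and 21.7% lower over all genes tested. Rorb, the ROR gene of brain and retina, had 0 reads in every library.

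Bmal1, listed under its older symbol Arntl (chr7:112806672-112913333), had normalized counts of 137, 105, 94.0, 66.1 and 289 in hypHSC 1 to 5. In qHSC 1 to 5 it had 348, 156, 595, 436 and 587. hypHSC 5 exceeded qHSC 2, and the other hypHSC libraries lay below all qHSCs. Bmal1 fell with a log2 fold change of -1.66 (SE 0.47, adjusted p = 0.0127 in limma). The 5 hypHSC libraries had the same order for Npas2 as for Bmal1, from hypHSC 5 through hypHSC 1, 2 and 3 to hypHSC 4. The last step in Npas2, 2.49 against 2.10 normalized counts, lay at or below the floor. In qHSCs the orders of Npas2 and Bmal1 differed, and the match was not tested.

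Rora, which activates Bmal1, had 295, 221, 251, 291 and 434 normalized counts in hypHSC 1 to 5, and 954, 858, 722, 483 and 714 in qHSC 1 to 5. The groups did not overlap, with hypHSCs lower, as was so for 22.0% of all genes tested. The log2 fold change was -1.32 (SE 0.25, adjusted p = 0.00129 in limma). Nr1d1, which encodes the REV-ERB alpha that represses Bmal1 and Npas2, had 662, 774, 361, 171 and 62.0 in hypHSC 1 to 5 and 2811, 5324, 349, 513 and 485 in qHSC 1 to 5. qHSC 1 and 2 stood far above the other libraries. The log2 fold change of Nr1d1 was -1.87 (SE 0.88, adjusted p = 0.102 in limma). It became a DEG with DESeq2, at -2.22 with an adjusted p of 0.0131. Of the exon bases of Nr1d1, 52.3% are shared with Thra, which fell with a log2 fold change of -3.47 (SE 0.76). Unstranded reads on the shared bases cannot be assigned to one gene of the pair. Thra had 449 to 509 normalized counts in the qHSC libraries. Nr1d2, the paralog of Nr1d1, had a log2 fold change of 0.48 (SE 0.50) and Bmal2, the paralog of Bmal1, one of -0.55 (SE 1.08), and neither passed the test.

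Nfil3, the D-box repressor that opposes DBP, had normalized counts of 373, 320, 228, 359 and 224 in hypHSC 1 to 5, and 44.4, 5.11, 91.3, 58.2 and 117 in qHSC 1 to 5. Every hypHSC library lay above every qHSC library, as was so for 17.6% of all genes tested. The log2 fold change was 2.72 (SE 0.70, adjusted p = 0.00767 in limma). The log2 fold change of Nfil3 was 2.00 without qHSC 2, the lowest library. Ciart, a repressor of CLOCK and BMAL1, had 278, 435, 284, 103 and 387 in hypHSC 1 to 5 and 36.2, 5.11, 26, 45.4 and 35.2 in qHSC 1 to 5. Its groups did not overlap either, and the log2 fold change was 3.41 (SE 0.61, adjusted p = 0.00081 in limma). The window upstream of Ciart held the E-box letters at 3 positions, 100, 42 and 28 bases before its start, more than that of any of the other genes described here, and the last 2 are shown here (chr3:95789566-95789625, GRCm39, minus strand, with the E-box at 42 bases in capitals).
Ciart, E-box: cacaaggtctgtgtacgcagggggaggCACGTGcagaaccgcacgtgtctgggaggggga

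Bhlhe41 (DEC2), which binds E-boxes and blocks CLOCK and BMAL1 there, had the largest fold of the clock genes examined. Normalized counts were 3231, 5883, 5266, 12107 and 25995 in hypHSC 1 to 5, against 28.1, 34.1, 40.9, 41.1 and 45.7 in qHSC 1 to 5. This gave a log2 fold change of 7.69 (SE 0.48, adjusted p = 4.95e-07 in limma). The groups had no overlap, as for the 17.6% of all genes tested that lay wholly higher in hypHSCs. Its paralog Bhlhe40 (DEC1) was abundant in both groups, with 3119 to 14758 in hypHSCs and 5683 to 9731 in qHSCs, and a log2 fold change of 0.26 (SE 0.39) that did not pass the test. Of the exon bases of Bhlhe41, 22.1% are shared with the gene model Gm43909.

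Ratios of genes that peak at different times of day overlapped between the groups. The log2 ratio of Dbp to Bmal1 ran from 0.09 to 1.5 in hypHSCs and from -2.46 to 1.33 in qHSCs. That of Dbp to Nfil3 ran from -1.10 to 0.46 in hypHSCs and from -0.14 to 6.01 in qHSCs, and that of Nr1d1 to Bmal1 from -2.20 to 2.88 and from -0.77 to 5.08. In each of the 3, qHSC 1 and 2 held the highest qHSC values. Among paralogs, the log2 ratio of Cry1 to Cry2 ran from 0.78 to 6.54 in hypHSCs and from 0.12 to 2.58 in qHSCs. The log2 ratio of Per1 to Per2 ran from 0.00 to 3.14 in hypHSCs and from 0.88 to 2.96 in qHSCs, so that both of these overlapped too.

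**Figure D3:**
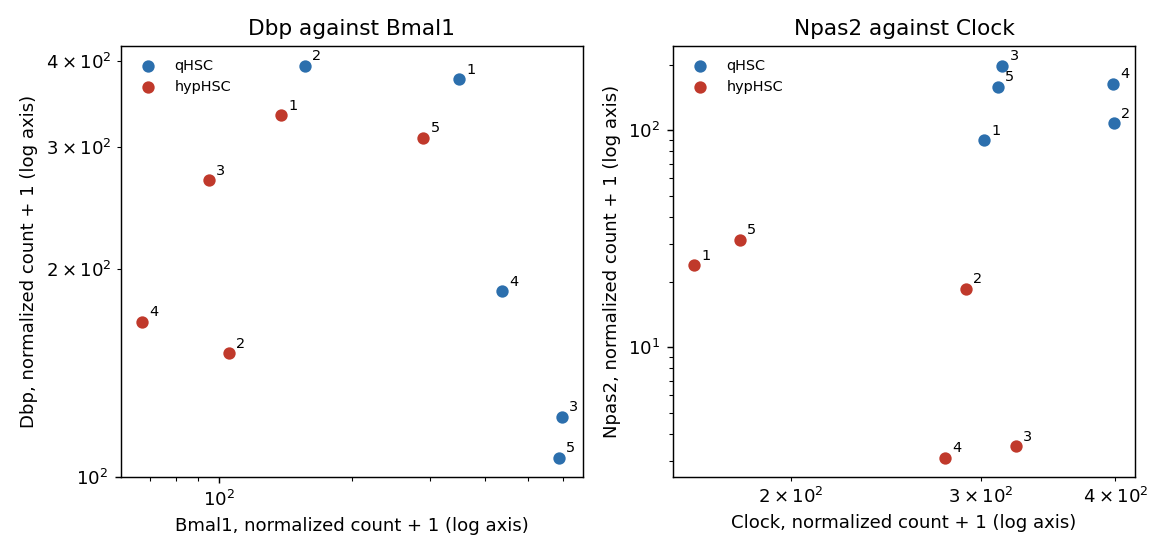
Normalized count + 1 of Dbp against Bmal1 (left) and of Npas2 against Clock (right), log axes, 1 numbered point per library (blue, qHSC; red, hypHSC). qHSC 1 and 2 lie high in Dbp and qHSC 3 and 5 high in Bmal1, and all qHSC points lie above all hypHSC points in Npas2.

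Within the qHSCs most of the clock genes had a wide spread between libraries. The SD of the log2 values in qHSCs was 0.88 to 1.48 for Per1, Per2, Per3, Cry2, Dbp, Tef and Hlf, at percentiles 83.4 to 91.9 of all genes tested, where the median was 0.34. It was 0.38 for Cry1, 0.47 for Npas2 and 0.20 for Clock. In qHSCs 9 of the 10 genes exceeded the median SD of all genes, and in hypHSCs, whose median was 0.73, 7 of the 10 did. The percentiles in hypHSCs ran from 26.5 for Clock to 92.0 for Hlf. The percentiles were not matched on read count, and the part of low counts in the spread was not tested. The reads behind these values numbered 132 to 1182 for Tef, 99 to 443 for Per1 and 4 to 60 for Hlf in qHSCs.

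The qHSC libraries stood in a similar order for many of the genes. qHSC 1 and 2 were the highest of the 5 qHSC libraries for 7 of the 10 clock genes, namely Per1, Per2, Per3, Cry2, Dbp, Tef and Hlf, and the lowest for Npas2. Over all genes tested, these libraries were the highest for 17.0% and the lowest for 10.4%. They were also the highest for 4 of the other 10 core clock genes (Nr1d1, Nr1d2, Rora and Bhlhe40) and the lowest for 3 (Bmal1, Nfil3 and Bhlhe41). The order was noticed in these values and was not tested, and genes of 1 loop measured in the same libraries are not independent. qHSC 5, labelled with the same age as qHSC 1 and 2, was the lowest qHSC library for Per2, Cry2, Dbp, Tef and Hlf. In hypHSCs no such order was shared by the members, as hypHSC 2 was the highest for Per1, Per2, Cry2 and Hlf but the lowest for Per3 and Dbp. hypHSC 5 was the lowest for Per1, Cry2 and Tef, and tied with hypHSC 4 at 0 for Hlf. It was the highest for Per3 and Npas2.

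**Figure D4:**
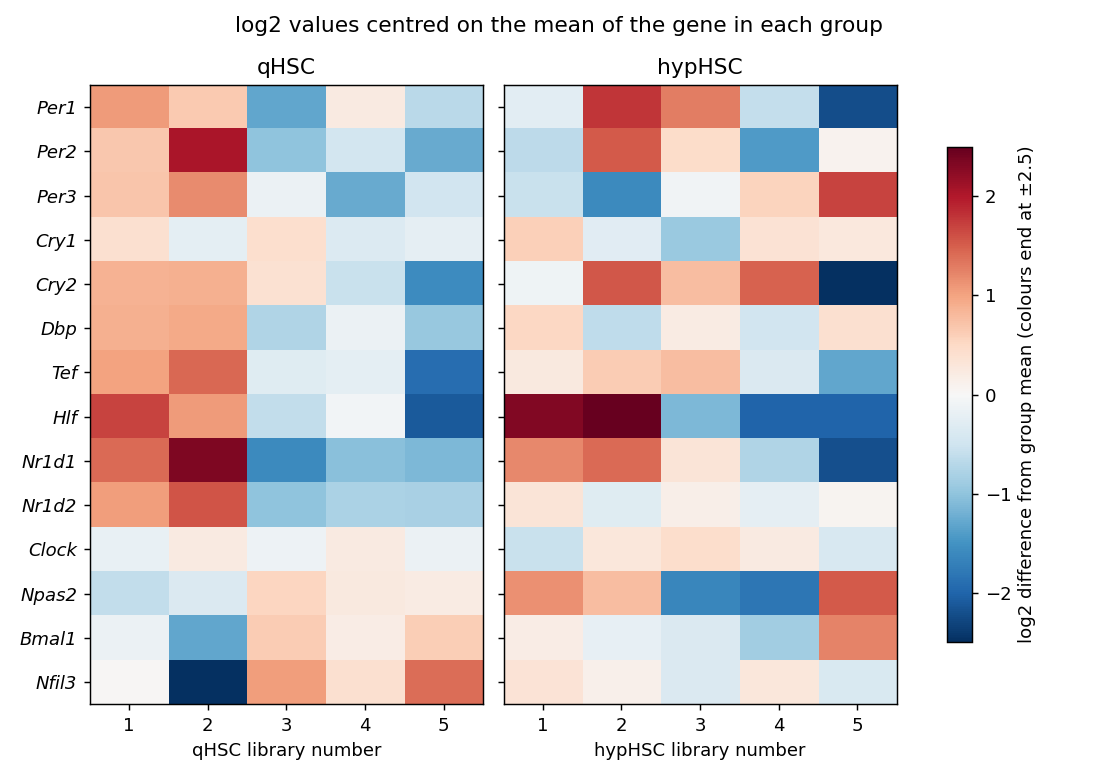
Log2(normalized count + 1) of each gene minus its mean in the group, by library number, for qHSCs (left) and hypHSCs (right), with colours ending at 2.5 either way. In qHSC 1 and 2 the rows from Per1 to Nr1d2 are red, except Cry1 in qHSC 2, and those of Npas2 and Bmal1 blue, while the hypHSC columns differ from gene to gene.

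Levels were compared between genes as FPKM, computed from recovered reads, exon length in the GENCODE annotation and the reads on genes with a symbol. The authors counted the reads on another annotation (FAST DB), whose exon lengths can differ, so the order between genes is approximate. In qHSCs the order of the mean FPKM was Dbp (2.08 ± 1.23), Tef (1.84 ± 1.37), Per3 (1.06 ± 0.67), Per1 (0.902 ± 0.535), Npas2 (0.798 ± 0.268), Cry1 (0.641 ± 0.199), Clock (0.609 ± 0.091), Per2 (0.270 ± 0.287), Cry2 (0.182 ± 0.106) and Hlf (0.105 ± 0.093) (SD, n = 5). In hypHSCs Dbp (1.69 ± 0.60) and Tef (1.32 ± 0.74) again led, and Hlf (0.0330 ± 0.0448) was again last. Npas2 was the fifth in qHSCs and the eighth in hypHSCs, at 0.0634 ± 0.050. The ranges of all neighbours in both orders overlapped. All 10 levels were low, below 4 FPKM in every library.

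**Figure D5:**
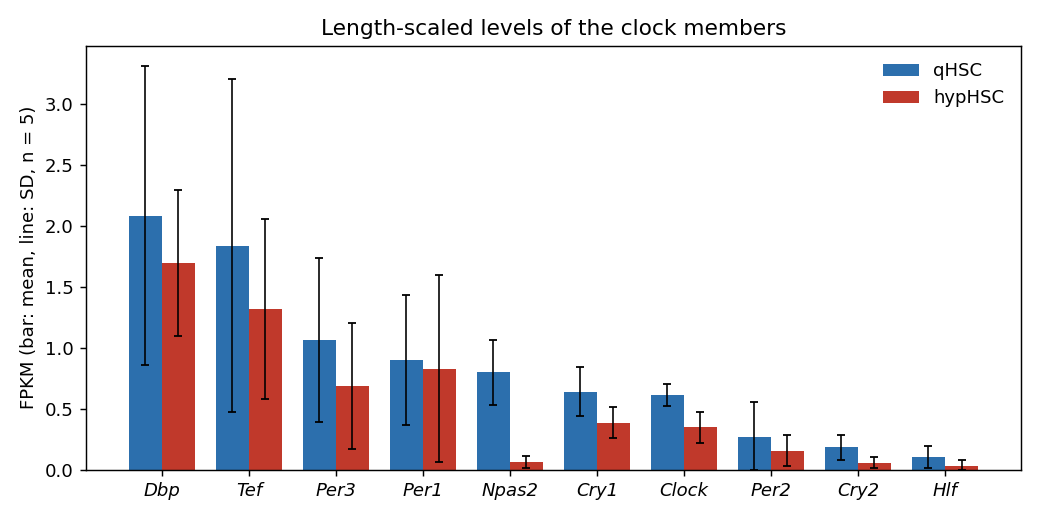
Mean FPKM of the 10 clock genes in qHSCs (blue) and hypHSCs (red), with lines of 1 SD over 5 libraries that are cut off at 0. Npas2 stands at 0.798 in qHSCs and 0.0634 in hypHSCs, and the SD lines of the groups do not meet for Npas2 and Clock. FPKM divides by the total reads on genes with a symbol, and scaling to the same total moved the median gene by -0.35. On the normalized counts Clock was not a DEG (adjusted p = 0.118 in limma).

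Genes around the loop were counted from 4 further lists, against the background of 17.8% higher and 21.7% lower. Of 13 genes that set the stability of clock proteins (kinases, ubiquitin ligases and a deubiquitinase), 1 was higher and 1 lower, with a median log2 fold change of -0.19. The kinase gene Gsk3b was the one that rose, at 1.21 (SE 0.25, adjusted p = 0.00203 in limma), and the ubiquitin ligase gene Btrc the one that fell, at -1.4 (SE 0.40, adjusted p = 0.0131 in limma). Of 8 clock cofactors, 1 was higher, Cipc, which encodes a repressor that binds CLOCK, at 1.55 (SE 0.40, adjusted p = 0.00739 in limma), and the median was 0.01. Of 13 rhythmic output genes of liver, 5 were higher and 2 lower, with a median of 0.07. Noct, a rhythmic phosphatase of NADPH, rose most, at 4.26 (SE 0.57, adjusted p = 0.000109 in limma), and Pdk4, an inhibitor of glucose oxidation, fell most, at -2.33 (SE 0.52, adjusted p = 0.00365 in limma). Of 12 immediate early genes, 1 was higher and 2 lower, with a median of -0.80. Among these, which cell dissociation can induce and some of which share the cyclic AMP response with Per1, Atf3 rose at 2.69 (SE 0.43) and Ier2 fell at -1.97 (SE 0.28).

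For each clock gene, the 2 genes with the most similar course over the 10 libraries were sought among 10707 genes outside the lists, by the root mean square difference of centred log2 values. Npas2 was closest to Bmp2 (0.38) and to the noncoding RNA gene Cerox1 (0.54). Clock was closest to Zmym6 (0.15) and Ano6 (0.17), and Cry1 to Fahd1 (0.26) and Decr1 (0.28). Dbp was closest to Polrmt (0.34) and Xiap (0.41), Per1 to Ncoa3 (0.48) and Ints7 (0.51), and Tef to Kif3b (0.50) and Kdm4a (0.52). The nearest genes of Per3 (Calm3 at 0.61 and Thbd at 0.62), Cry2 (Tkfc at 0.67 and Acad10 at 0.69), Per2 (Zfp729b at 0.68 and Ciz1 at 0.69) and Hlf (Adamtsl2 at 1.07 and Bcl9l at 1.08) were farther away. With this many candidates some will lie close whatever the gene. The difference was not scaled to the spread of the gene, so the distances of different clock genes are not comparable. Within both groups the SD of the log2 values was smallest for Clock and largest for Hlf.

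Cell type markers moved with the groups, and depth overlapped between them. Reads on genes with a symbol numbered 30534719 to 43283589 in hypHSCs and 35640104 to 47317028 in qHSCs, and mitochondrial entries held 2.21% to 12.8% of the reads in hypHSCs and 1.25% to 1.61% in qHSCs. Genes with a symbol and at least 1 read numbered 15821 to 16634 in hypHSC 1, 2 and 3. They numbered 14949 in hypHSC 4 and 14028 in hypHSC 5, below every qHSC library (15703 to 16211). All 9 markers of quiescent stellate cells fell, Lrat, which stores retinol as esters, from 74761 to 136938 normalized counts in qHSCs to 476 to 2312 in hypHSCs. Their sum was 6126 to 19701 in hypHSCs and 751955 to 1408880 in qHSCs, and Ngfr was at 0 in hypHSC 5. Of 9 macrophage markers 8 rose, all but Clec4f, and their sum was 995339 to 1233480 in hypHSCs and 3429 to 78468 in qHSCs, where qHSC 4 and qHSC 1 were the highest and Itgam was at 0 in qHSC 5. The libraries labelled as hypHSCs thus held more macrophage than quiescent stellate marker transcripts. Cholangiocyte markers rose (3 of 3 tested), those of hepatocytes did not pass the test (0 of 6), and 1 of 5 endothelial and 1 of 5 myofibroblast markers tested were higher, with 1 and 2 lower. Of the lymphocyte markers, 1 was tested and not called. In such bulk samples, fewer cells of a type and less RNA per cell cannot be told apart. The part of these markers in the lower Npas2, Bmal1 and Rora and the higher Nfil3, Ciart and Bhlhe41 was not tested. Within qHSCs, the macrophage sum was 37605 and 3429 in qHSC 1 and 2, and its part in the order of the qHSC libraries was not tested.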

How the data were processed

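RNA was measured in 10 libraries. The authors primed cDNA with oligo-dT, amplified it, made paired-end libraries that do not keep the strand, mapped reads to mm39 (GRCm39) with STAR 2.7.5a, counted them per gene with featureCounts (Subread 1.5.0) and divided by DESeq2 size factors. The deposited signal is this normalized count. The authors' table gave whole reads for 100% of values (tolerance 0.006 normalized counts), and those reads were used for depth, FPKM, DESeq2 (1.42.0) and edgeR (4.0.16).

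Entries without a symbol (37089) entered 1 alternative. Genes reaching 10 normalized counts in 5 or more of the 10 libraries were tested with limma (3.58.1, intensity trend, R 4.3.3) on log2(normalized count + 1), with Benjamini-Hochberg adjustment over all of them. Exact two-sided permutation tests used every arrangement of 5 libraries against 5. Alternatives changed the pseudocount, filter, scaling, tool, block, diet weeks and libraries. The steps were tested on simulated data.

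The clock genes and lists (clock protein turnover, cofactors, rhythmic outputs, immediate early genes, cell type markers) were chosen with earlier results of these data known. All clock genes and other core clock genes were described, except 1 further core gene that is neither counted nor reported here, and of each further list the DEG with the largest rise and the largest fall. Nearest profiles were sought among genes averaging 100 normalized counts or more. Markers and overlapping genes were named for context after their values were seen. Same-numbered libraries correlated at 0.07, 0.07, 0.01, 0.06 and 0.13 in their deviations from the group means. They were not treated as pairs in the main fit, and these low values cannot exclude a shared processing step.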

Additional observations from a re-analysis of the deposited data

Results flagged for a closer look

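In 38 groups of 5 libraries (19 clock genes in either group), the lowest or the highest library was compared with the rest by Dixon's ratio, and 3 stood apart, where chance gives about 1 in 20. Ciart was lowest in qHSC 2, at 5.11 normalized counts against 26 to 45.4 in the other qHSCs. Bmal2 was lowest in qHSC 4, at 3.42 against 18.7 to 34.4, and Bhlhe40 was lowest in hypHSC 5, at 3119 against 9753 to 14758 in the other hypHSCs. None of the 10 clock genes taken by symbol had such a library.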

How the results depend on the processing

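Under all 22 alternatives Npas2 was lower in hypHSCs and a DEG, at -4.53 to -3.11, and so were Bmal1 and Rora (lower) and Nfil3, Bhlhe41 and Ciart (higher). Scaled on Hprt, Pgk1 and Actb, which moved the median gene by -0.93, 1472 genes were higher and 7018 lower, and 5 clock genes were lower, Cry1 (-1.31), Cry2 (-2.68), Hlf (-2.89), Clock (-1.46) and Npas2. There Dbp (-0.74), Tef (-0.88), Nr1d2 (-0.46) and Bhlhe40 (-0.68) turned negative. At the same total, which moved the median by -0.35, Dbp (-0.16), Tef (-0.29) and Bhlhe40 (-0.10) did so. DESeq2 called 5822 DEGs and edgeR 5336. With DESeq2 (median moved by 0.14) the signs of Per1 (0.15), Tef (-0.18) and Bmal2 (0.20) turned. With edgeR (median moved by 0.20) those of Per1 (0.20), Tef (-0.12) and Bmal2 (0.22) turned. The upper quartile moved the median by 0.12. With hypHSCs of 12 weeks only, 2 clock genes were lower (Npas2 and Hlf, -3.81), and Per3 (0.35) and Tef (-0.23) turned. With entries that lack a symbol there were 9291 DEGs, 3911 higher and 5380 lower, more entries being tested. With each library left out in turn, DEGs numbered 5241 to 5914, and this turned the sign of Per1 (-0.66 to 0.34), Per2 (-0.64 to 0.25, without hypHSC 4 or qHSC 2), Per3 (-0.78 to 0.035, without hypHSC 2), Dbp (-0.041 to 0.43, without qHSC 5), Tef (-0.41 to 0.42) and Bmal2 (-1.16 to 0.36, without hypHSC 5). The replicate block left 1 clock gene lower and made Nr1d1 a DEG (adjusted p = 0.01 in limma), as did the reference genes (-2.81) and the 12-week libraries (-2.74). The cause of these shifts was not tested. At this depth values of Hlf, Cry2 and Npas2 in single hypHSC libraries lie at or below the floor, which is 2.49 to 4.54 normalized counts in hypHSCs.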
